A study of Mus musculus with 10 samples.

Results

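A set of 8 poorly characterised or multicopy loci of the mouse genome, read at very different levels in Lsm7 cKO and WT testis, is described here library by library. The loci are Gm8615, AI506816, 4930413G21Rik, Gm5084, Gm38999, Rnaset2b, Erdr1 and Rmst. The 8 loci were taken by name from the 25239 genes of the count table, and all 8 passed the filter on low counts that 18419 genes passed. They were chosen by the measured gaps between their cKO and WT levels, so those gaps are given as values with no test.

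RNA was sequenced from testis at P4 and P7 (postnatal days 4 and 7), the days around which spermatogonia, the germ cells that feed spermatogenesis, begin to differentiate. The groups were P4 cKO (3 libraries), P4 WT (2 libraries), P7 cKO (3 libraries) and P7 WT (2 libraries), all labelled strain C57BL/6. The cKO genotype is given as Lsm7-flfl-stra8, which names floxed Lsm7 and stra8 but spells out no Cre driver, and the series sets out to compare germ cells lacking Lsm7 with WT. The LSM7 protein belongs to the ring-shaped LSm complexes that bind U6 small nuclear RNA in splicing and help to decap messenger RNA for decay. Nothing in the labels says that libraries of a group came from separate animals, so the p-values below measure the spread between libraries, which may be no more than technical. In P7 WT the 2 libraries differed by little more than counting noise (1.98 as the chi-square per degree of freedom, where other pairs of 1 group had 23.5 to 122.9) and were counted as 1 sample, which has no SD.

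Library totals ran from 28.8 to 41.8 M reads. Lsm7 itself was read at 43.6 to 50.4 CPM in P4 cKO and 25.8 to 36.4 CPM in P4 WT, and at 20.2 to 45.4 CPM in P7 cKO and 32.8 to 32.9 CPM in P7 WT. CPM are reads per 1 M reads counted, scaled by TMM factors. Lsm7 did not pass the test at either stage (log2 0.58, edgeR adjusted p = 0.215 for P4, and log2 -0.13, adjusted p = 0.835 for P7). The directions below are therefore those of libraries labelled cKO. The labelled cell type is germ cell, but 11 Sertoli cell markers summed to 3044 to 5904 CPM over the 10 libraries, against 251 to 2006 CPM for 12 germ cell markers. In such whole-tissue RNA, fewer cells of a type and less RNA per cell cannot be told apart.

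The loci are of different kinds. Pseudogenes are copies of genes that mostly no longer make the protein, yet some are transcribed. Long noncoding RNAs (lncRNAs) are transcripts without a long open reading frame, and the testis is known for making many of them. Reads of near-identical gene copies can be credited to either copy or to none, depending on how an aligner treats reads with several matches, and the setting used is not given in the sources used here.

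RefSeq (GRCm38.p6) promoters of 300 bases, from 250 before to 50 after the start, were found for 4 of the 8 loci, and Gm8615, Gm5084, Erdr1 and Rmst had no entry. The first pair of sequences belongs to the loci with a level high in a single group. AI506816 was high in P4 cKO and Gm38999 in P4 WT. Capitals mark matches on either strand to the GC box (GGGCGG), the E2F6-type motif (GGCGGGA), the CCAAT box (by that name), the TATA box (TATAAA) or the E-box (CACGTG).

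AI506816, chr5:23712618-23712917, minus strand: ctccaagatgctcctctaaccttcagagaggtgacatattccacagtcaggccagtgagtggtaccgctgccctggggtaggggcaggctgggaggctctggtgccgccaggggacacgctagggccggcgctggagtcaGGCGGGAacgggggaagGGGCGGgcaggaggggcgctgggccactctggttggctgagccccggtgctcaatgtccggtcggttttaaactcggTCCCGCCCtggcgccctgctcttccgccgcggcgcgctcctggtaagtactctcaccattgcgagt
Gm38999, chr7:43427420-43427719, plus strand: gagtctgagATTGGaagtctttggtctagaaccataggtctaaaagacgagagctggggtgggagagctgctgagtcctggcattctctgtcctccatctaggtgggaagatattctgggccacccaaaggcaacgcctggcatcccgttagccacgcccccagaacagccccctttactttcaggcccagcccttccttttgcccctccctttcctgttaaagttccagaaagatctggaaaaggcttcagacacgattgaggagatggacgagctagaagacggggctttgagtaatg

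The AI506816 window held 2 GC box and 2 E2F6-type matches, of which 1 pair overlaps, and none of the other letters. The Gm38999 window held 1 CCAAT match. Of all 32851 promoters in the RefSeq table, 35.7% held the GC box, 11.3% the E2F6-type motif, 37.4% the CCAAT box, 13.6% the TATA box and 7.15% the E-box. GC made up 66.3% of the AI506816 window, with 21 CpG, and 53.0% of the Gm38999 window, with 7 CpG, against a median of 52.7% and 7 CpG over all promoters.

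The next sequence shows how closely 4930413G21Rik adjoins its neighbour. Its start lies head to head with that of Rbbp6, a ubiquitin ligase of the p53 and retinoblastoma pathways, and capitals mark the 104 bases between the annotated genes.

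4930413G21Rik, chr7:122970410-122970709, minus strand: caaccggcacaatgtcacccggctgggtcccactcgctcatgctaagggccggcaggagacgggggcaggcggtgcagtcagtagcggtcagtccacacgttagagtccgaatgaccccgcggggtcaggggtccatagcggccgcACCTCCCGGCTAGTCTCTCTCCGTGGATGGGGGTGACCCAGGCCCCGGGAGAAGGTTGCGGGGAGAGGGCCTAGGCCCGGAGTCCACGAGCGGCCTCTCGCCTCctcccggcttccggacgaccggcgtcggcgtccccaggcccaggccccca

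The last pair shows how alike the Rnaset2 copies are over a stretch at annotated starts. The window before Rnaset2b and the matching one of Rnaset2a agree in 254 of 255 bases, and capitals mark the base that differs. This Rnaset2a window lies inside the span of the gene. Another RefSeq promoter of Rnaset2a lies further upstream, with 60.7% GC and 4 CpG, where the Rnaset2b promoter has 68.3% and 23 CpG. The likeness of that upstream promoter to Rnaset2b is not given here.

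Rnaset2b, chr17:6978655-6978909, plus strand: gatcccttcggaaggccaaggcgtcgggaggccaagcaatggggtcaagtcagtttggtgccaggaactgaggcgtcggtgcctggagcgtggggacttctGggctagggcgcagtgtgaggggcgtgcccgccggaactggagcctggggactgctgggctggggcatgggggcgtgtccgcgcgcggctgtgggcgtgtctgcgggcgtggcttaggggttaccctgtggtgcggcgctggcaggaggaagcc
Rnaset2a, chr17:8147783-8148037, minus strand: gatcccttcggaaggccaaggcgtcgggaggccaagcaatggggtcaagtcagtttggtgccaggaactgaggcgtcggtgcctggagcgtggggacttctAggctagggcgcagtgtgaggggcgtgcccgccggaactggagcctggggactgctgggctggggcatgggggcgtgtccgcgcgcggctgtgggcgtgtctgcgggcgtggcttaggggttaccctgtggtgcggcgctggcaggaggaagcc

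**Figure D1:**
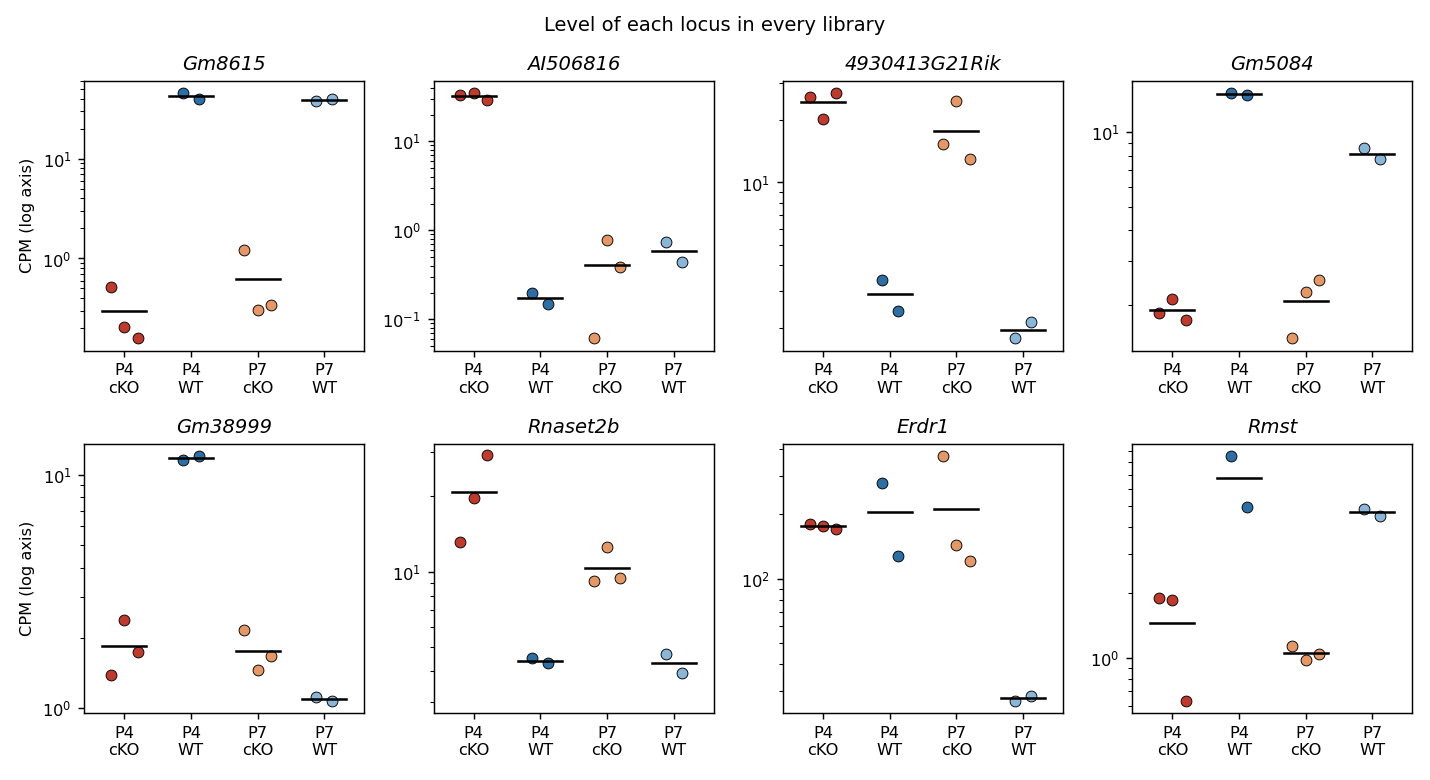
Each panel plots 1 locus, with CPM on a log axis, a point per library and a line at the group mean (the P7 WT pair counts as 1 sample). Gm8615 stays above 38 CPM in every WT library and at or under 1.22 CPM in every cKO library, while AI506816 exceeds 29 CPM in P4 cKO libraries alone.

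Gm8615 (chr5:149154128-149156192, minus strand, 1 exon, transcribed pseudogene) was the locus nearest to an on-off pattern. At P4 it had 18, 6 and 6 reads in the cKO libraries and 1360 and 1350 in the WT libraries. At P7 it had 40, 12 and 14 reads in the cKO libraries and 1088 and 1196 in the WT libraries. Every WT library stood far above every cKO library, and the cKO libraries were low but not at 0.

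Mean levels of Gm8615 at P4 were 0.295 ± 0.197 CPM in cKO (SD, n = 3) and 42.6 ± 3.79 CPM in WT (SD, n = 2). At P7 they were 0.620 ± 0.520 CPM in cKO (SD, n = 3) and 39.1 CPM in WT. Fitted log2 fold changes of cKO over WT were -7.15 at P4 (SE 0.57) and -6.04 at P7 (SE 0.56). P4 cKO library 1 and P7 cKO library 1 held more reads than the others of their groups, and without them the values were -7.87 at P4 and -6.93 at P7.

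Gm8615 is a near copy of Gnpda1, which encodes a glucosamine-6-phosphate deaminase of hexosamine metabolism. Its GENCODE M21 transcript matched Gnpda1 on chromosome 18 over 753 of 771 bases at 99.1% identity. Gnpda1 was read at 65.6, 54.7 and 54.6 CPM in P4 cKO and 31.1 and 37.7 CPM in P4 WT. At P7 it was read at 57.1, 58.7 and 61.2 CPM in cKO and 48.3 and 49.0 CPM in WT. It was thus higher in each cKO library than in each WT library of its stage, the reverse of Gm8615. The log2 fold change of Gnpda1 stood at 0.77 at P4 (SE 0.17), which passed the threshold (edgeR adjusted p = 0.0254, where a value under 0.05 after Benjamini-Hochberg adjustment over all 18419 genes tested counts as passed). At P7 it stood at 0.26 (SE 0.21) and did not pass (adjusted p = 0.419). The P4 call of Gnpda1 was lost without P4 WT library 1 or any 1 of the P4 cKO libraries, with adjusted p up to 0.262.

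Other calls between genotypes at P4 were likewise lost when 1 of several libraries was left out. Of the 39 genes that passed at P4 among Gnpda1, the gene lists and the genes beside the loci, all described below, 0 passed by edgeR without P4 WT library 1 (38 had an unadjusted p under 0.05). Without P4 cKO library 2 or library 3, 1 of the 39 passed, Spata22, and all 39 kept their direction whichever library was left out. Of 26 such genes at P7, 10 passed without P7 cKO library 2 and 20 or more without any other library.

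Summed over Gm8615 and Gnpda1, the level was 58.6 ± 6.49 CPM in P4 cKO (SD, n = 3) and 77.0 ± 0.858 CPM in P4 WT (SD, n = 2). At P7 the sum was 59.6 ± 1.69 CPM in cKO (SD, n = 3) and 87.7 CPM in WT. Gm8615 made up 0.288% to 2.09% of the summed reads in the cKO libraries and 44.1% to 59.3% in the WT libraries. The sum was therefore also lower in cKO, but far less so than Gm8615 alone. The part that shared reads have in these values was not tested.

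AI506816 (chr5:23692261-23712667, minus strand, 5 exons) is a lncRNA. At P4 it had 1145, 1013 and 1122 reads in the cKO libraries and 6 and 5 in the WT libraries. At P7 the counts were 2, 31 and 16 in the cKO libraries and 21 and 13 in the WT libraries. It was high in the 3 P4 cKO libraries and low in the other 7, and at P7 the genotypes overlapped.

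The mean level of AI506816 at P4 was 32.4 ± 2.65 CPM in cKO (SD, n = 3) and 0.174 ± 0.0367 CPM in WT (SD, n = 2). At P7 it was 0.409 ± 0.360 CPM in cKO (SD, n = 3) and 0.585 CPM in WT. On the log2 scale cKO over WT was 7.53 at P4 (SE 0.67) and -0.48 at P7 (SE 0.67). Without P7 cKO library 2 the P7 value was -1.30. Transcripts of 16 other genes matched AI506816 over at least 200 bases at 90% identity or more, the longest being Gm42427 on chromosome 5 (91.1% over 2474 bases).

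4930413G21Rik (chr7:122969058-122970459, minus strand, 1 exon) is a lncRNA. At P4 it had 893, 592 and 1019 reads in the cKO libraries and 102 and 82 in the WT libraries. At P7 it had 504, 979 and 537 reads in the cKO libraries and 51 and 64 in the WT libraries. All cKO libraries lay above all WT libraries at both stages, but the WT libraries were well above 0.

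Its mean level at P4 was 24.3 ± 3.53 CPM in cKO (SD, n = 3) and 2.91 ± 0.687 CPM in WT (SD, n = 2). At P7 it was 17.7 ± 6.14 CPM in cKO (SD, n = 3) and 1.96 CPM in WT. The log2 fold change was nearly the same at both stages, 3.07 at P4 (SE 0.33) and 3.14 at P7 (SE 0.44). Rbbp6, on the other side of the 104 bases printed above, did not pass the threshold at either stage. Its log2 fold change was -0.57 at P4, with an SE of 0.20 (edgeR adjusted p = 0.0947), and -0.35 at P7, with an SE of 0.25 (adjusted p = 0.364). No transcript of another gene matched 4930413G21Rik.

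Gm5084 (chr13:60205471-60216018, plus strand, 4 exons) is a lncRNA, and no transcript of another gene matched it either. At P4 it had 64, 62 and 66 reads in the cKO libraries and 431 and 476 in the WT libraries. At P7 the counts were 48, 90 and 104 in the cKO libraries and 246 and 232 in the WT libraries. The libraries of each P4 group were close together, and all cKO libraries lay below all WT libraries at both stages.

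Mean levels of Gm5084 at P4 were 1.90 ± 0.198 CPM in cKO (SD, n = 3) and 14.2 ± 0.194 CPM in WT (SD, n = 2). At P7 they were 2.08 ± 0.548 CPM in cKO (SD, n = 3) and 8.19 CPM in WT. On the log2 scale cKO over WT was -2.89 at P4 (SE 0.27) and -1.99 at P7 (SE 0.31).

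Rmst (chr10:92081746-92165178, minus strand, 13 exons) is a lncRNA known from human neural cells, where it binds the transcription factor SOX2. It lies 11.2 Mb from Lsm7, the targeted gene, on the same chromosome. At P4 it had 65, 54 and 24 reads in the cKO libraries and 256 and 168 in the WT libraries. At P7 it had 37, 39 and 43 reads in the cKO libraries and 139 and 135 in the WT libraries. All cKO libraries lay below all WT libraries at both stages.

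The mean level of Rmst at P4 was 1.45 ± 0.712 CPM in cKO (SD, n = 3) and 6.74 ± 2.51 CPM in WT (SD, n = 2). At P7 it was 1.05 ± 0.0748 CPM in cKO (SD, n = 3) and 4.69 CPM in WT. On the log2 scale the change was -2.21 at P4 (SE 0.42) and -2.18 at P7 (SE 0.49). P4 WT library 1 had the most reads, and without it the P4 value was -1.78. Gm26700 on chromosome 10 shared 1758 bases with Rmst at 100% identity. Of 7 genes listed with Rmst, 1 fell at P4 (Dlx1, a homeobox factor, log2 -2.26, adjusted p = 0.0365). At P7, 1 fell (Nedd1, a centrosome protein, log2 -0.89, adjusted p = 0.0307). Nedd1 also lies 520 kb from Rmst and is counted again below among the flanking genes. Dlx1 was read at 0.058 to 0.158 CPM in P4 cKO and 0.399 to 0.562 CPM in P4 WT, so its call rests on few reads. Sox2 did not pass, with a log2 value of -0.27 at P4 (adjusted p = 0.704) and, for P7, of 1.46 (adjusted p = 0.160). The call of Dlx1 was lost without any 1 of the P4 libraries or P7 cKO library 2, and that of Nedd1 without P4 cKO library 2 or P7 cKO library 2. Of all genes, 4.13% fell at P4 and 9.72% at P7. The list median was -0.61 at P4 and -0.15 at P7, against 0.00 and 0.08 over all genes tested.

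Gm38999 (chr7:43427670-43429836, plus strand, 2 exons) is protein coding, and RefSeq gives C7H19orf84 as a synonym. The mouse C19ORF84 protein works with SPOCD1 in piRNA-directed DNA methylation, which silences transposons in fetal male germ cells. At P4 it had 48, 70 and 66 reads in the cKO libraries and 345 and 406 in the WT libraries. At P7 the counts were 71, 58 and 69 in the cKO libraries and 32 and 32 in the WT libraries. It was high in P4 WT alone, and the genotypes did not overlap at either stage but lay in opposite order.

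Mean levels of Gm38999 at P4 were 1.84 ± 0.512 CPM in cKO (SD, n = 3) and 11.7 ± 0.367 CPM in WT (SD, n = 2). At P7 they were 1.76 ± 0.364 CPM in cKO (SD, n = 3) and 1.10 CPM in WT. Its log2 fold change was -2.67 at P4 (SE 0.30) and 0.66 at P7 (SE 0.40). The 10 other genes of piRNA-directed DNA methylation that were tested gave 3 that fell at P4 and 1 that fell at P7, and none that rose at either stage. At P4 these were Tex15 (log2 -1.05, adjusted p = 0.0273), Tdrd9 (log2 -0.97, adjusted p = 0.0243) and Mael (log2 -0.99, adjusted p = 0.0156), and at P7 Tex15 alone (log2 -1.15, adjusted p = 0.0236). Of all genes, 4.13% fell at P4 and 9.72% at P7. None of the 3 passed without P4 WT library 1 or P4 cKO library 2 or 3, nor did Tex15 at P7 without P7 cKO library 2 or 3. All 3 are also the pan germ cell markers that fell at P4, so both lists count the same genes. The summed level of the 12 germ cell markers, also lower in P4 cKO, was 251 to 263 CPM there and 336 to 445 CPM in P4 WT, and its part in these calls was not tested. The piRNA list was written after the values of Gm38999 had been seen, and Spocd1 and Dnmt3c were not analysed here. The list median was -0.64 at P4 and 0.14 at P7.

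Rnaset2b encodes an acid ribonuclease of the T2 family, which degrades RNA in lysosomes. The table gives it at chr17:6978860-6998193 on the plus strand with 9 exons and again at chr17:8128591-8147832 on the minus strand. The second place shares 968 of 1013 exon bases (95.6%) with Rnaset2a, which had 0 to 3 reads in every library. The transcripts of the copies matched at 99.1% over 2456 bases, so the copy that its reads came from is uncertain.

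At P4 Rnaset2b had 456, 576 and 1117 reads in the cKO libraries and 135 and 146 in the WT libraries. At P7 it had 300, 497 and 391 reads in the cKO libraries and 134 and 117 in the WT libraries. All cKO libraries lay above all WT libraries at both stages, with the widest spread in P4 cKO. The mean level at P4 was 20.8 ± 8.14 CPM in cKO (SD, n = 3) and 4.41 ± 0.125 CPM in WT (SD, n = 2). At P7 it was 10.4 ± 1.85 CPM in cKO (SD, n = 3) and 4.30 CPM in WT. The log2 fold change was 2.24 at P4 (SE 0.33) and 1.25 at P7 (SE 0.42), and the P4 value was 1.89 without P4 cKO library 3.

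Of 10 other tested genes for nucleases and their inhibitor, 1 rose at P4 and 2 at P7, and none fell, where 4.84% of all genes rose at P4 and 7.26% at P7. Rnaseh2c, a subunit of ribonuclease H2, rose at both stages (P4 log2 1.47, adjusted p = 0.0114; P7 log2 1.88, adjusted p = 0.00642), and Rnaseh2a, its catalytic subunit, rose at P7 (log2 1.02, adjusted p = 0.0203). The list median was 0.37 at P4 and 0.53 at P7. Rnaseh2c was not called at P4 without P4 WT library 1 or P4 cKO library 2 or 3, nor Rnaseh2a at P7 without P7 cKO library 2. Of 14 genes for lysosomal proteins, 5 rose and 0 fell at P4 (median log2 0.80), among them Ctsd, a lysosomal protease (1.37, adjusted p = 0.0358). The count was 0 to 9 when 1 library was left out, with 0 without P4 WT library 1 or P4 cKO library 2 or 3. At P7, 1 rose and 1 fell (median log2 0.18). Of 8 markers of macrophages, cells rich in lysosomes, 3 rose and 0 fell at P4 (median log2 1.04). None of them passed without P4 cKO library 2 or 3, nor without P4 WT library 1 or 2. The 3 that rose were Lyz2 (log2 1.74), C1qa (1.10) and C1qb (0.97). Adgre1 (1.48) and C1qc (1.24) lay above 0 at P4 and did not pass. Csf1r (-0.09), Cd68 (-0.12) and Mrc1 (-0.50) lay below 0 there and did not pass either. The summed level of the 8 markers was 88.6 to 146 CPM in P4 cKO and 84.9 to 85.0 CPM in P4 WT, and none of the 8 was at 0. At P7 the sum was 51.3 to 63.4 CPM in cKO and 72.6 to 75.2 CPM in WT, while the median log2 of the markers was 0.10. Much of the lower P7 sum lay in Mrc1, at 12.1 to 16.7 CPM in cKO and 33.9 to 36.5 CPM in WT. The part of the macrophage markers in the level of Rnaset2b was not tested.

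Erdr1 lies in the pseudoautosomal region, the stretch that the X and Y chromosomes share and where they pair in male meiosis. The table places it at chrY:90785442-90816465 on the plus strand with 3 exons. RefSeq places it at chrX:170010526-170018797 and calls it a transcribed pseudogene, while GENCODE M21 has Gm47283 at the place in the table. A stretch of 529 bases was identical in Gm21887 on the X chromosome, so the chromosome of origin of its reads is not known.

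At P4 Erdr1 had 6213, 5130 and 6452 reads in the cKO libraries and 8389 and 4292 in the WT libraries. At P7 the counts were 12186, 5680 and 5005 in the cKO libraries and 772 and 854 in the WT libraries. The genotypes overlapped at P4 and parted at P7, where the P7 WT pair alone was low. The mean level at P4 was 175.0 ± 5.07 CPM in cKO (SD, n = 3) and 203 ± 108 CPM in WT (SD, n = 2). At P7 it was 212 ± 139 CPM in cKO (SD, n = 3) and 27.8 CPM in WT. Libraries of P4 WT and of P7 cKO differed widely among themselves. The log2 fold change was -0.21 at P4 (SE 0.44) and 2.91 at P7 (SE 0.68). The P4 value turned to 0.47 without P4 WT library 1 and was -0.67 without P4 WT library 2. The P7 value was 2.23 without P7 cKO library 1, at 372 CPM the highest of its group, where the others had 143 and 121 CPM. Since the low group is 1 sample, the P7 difference has no replicate on the WT side. Of the other genes of the region and its border, Mid1 was tested and did not pass by edgeR. Its log2 value was 0.75 at P4 (adjusted p = 0.260) and, for P7, 1.45 (adjusted p = 0.104), with the same sign at both stages. DESeq2, however, called Mid1 at P7, and edgeR called it higher in cKO at both stages without P7 cKO library 1.

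**Figure D2:**
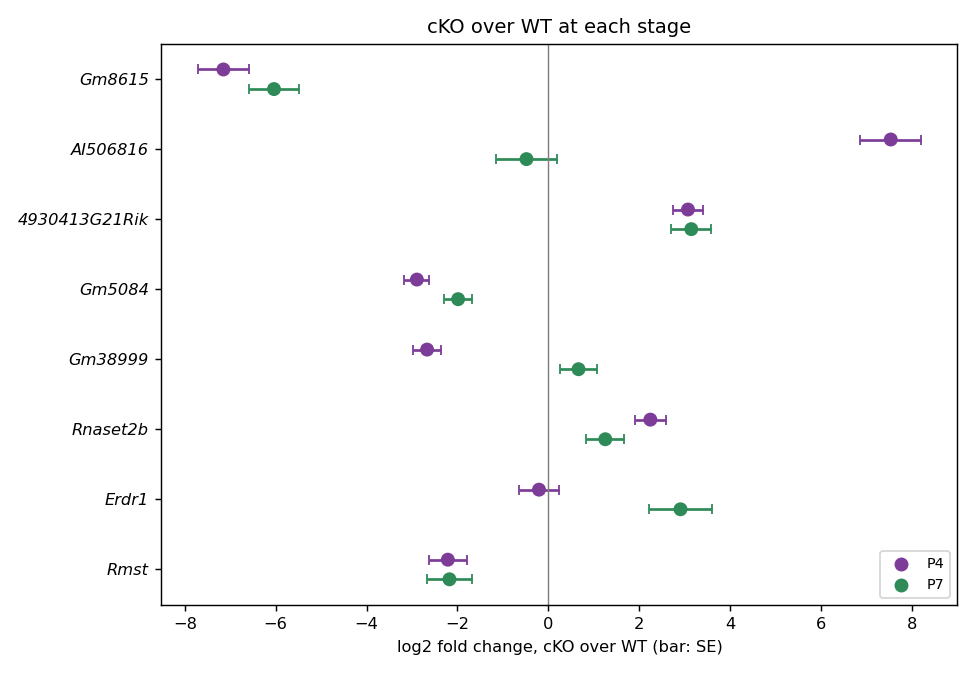
Log2 fold change of cKO over WT for each locus, P4 in purple and P7 in green, with SE as bars and no test. Gm8615, Gm5084 and Rmst lie below 0 and 4930413G21Rik and Rnaset2b above 0 at both stages, whereas AI506816, Gm38999 and Erdr1 lie far from 0 at a single stage.

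Between genotypes, 5 of the 8 loci had cKO and WT libraries apart in the same direction at both stages, 3 with cKO below (Gm8615, Gm5084, Rmst) and 2 with cKO above (4930413G21Rik, Rnaset2b). Among all genes tested, 23.1% had this pattern. Another 2 were apart at 1 stage only (AI506816 at P4 and Erdr1 at P7), a pattern that 18.0% of all genes had at P4 alone and 32.8% at P7 alone. Whatever the other stage, 49.3% of all genes were apart at P4 and 64.1% at P7. Gm38999 was apart in opposite directions, as were 8.19% of all genes. Since the genotype gap chose the loci, nothing is read from these counts.

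An on-off split was defined as a lowest level in 1 genotype at least 8 times the highest in the other, with each level raised to at least that of 3 reads. By this measure 5 of 25239 genes were split at P4 (0.0198%), 11 at P7 (0.0436%) and 1 at both stages in the same direction (0.00396%). That gene was Gm8615, with gaps of 76.6-fold at P4 and 31.2-fold at P7. AI506816 was split at P4 (148-fold) and not at P7. The other 6 loci were split at neither stage, so that the description on-off holds for Gm8615, and for AI506816 at P4 only.

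At a 4-fold gap 4930413G21Rik joined Gm8615, with gaps of 5.97-fold at P4 and 6.05-fold at P7. Next in order by the smaller gap of the stages came Spata22, a meiotic recombination factor (3.72-fold), and Rpl34, a ribosomal protein gene (3.55-fold). F630042J09Rik followed (3.24-fold), then Gm5084 (3.10-fold), Gm5820 (2.84-fold), 0610038B21Rik (2.74-fold), Zfp428 (2.71-fold) and Rmst (2.64-fold). Below a 4-fold gap the loci thus lie among other genes with gaps of like size. Some of those genes rest on few reads. F630042J09Rik had 2 to 6 reads and Gm5820 had 4 to 16 in the cKO libraries, and 0610038B21Rik had 0 to 6 in the WT libraries. Rpl34 had 12 to 127 reads over all libraries.

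**Figure D3:**
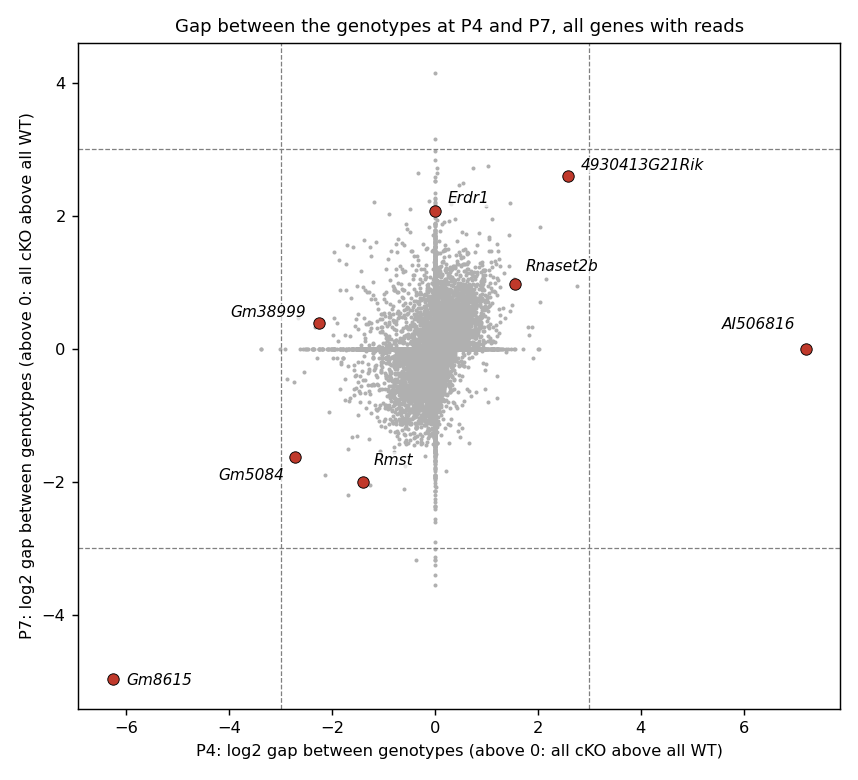
Gap between genotypes for every gene with reads, P4 on the x axis and P7 on the y axis, as the log2 ratio of the lowest level in the higher genotype to the highest level in the lower one (0 where they overlap, above 0 where all cKO are higher, dashed lines at 8-fold). Gm8615 alone lies beyond the lines at both stages, and AI506816 lies at 148-fold at P4.

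Compared per exon length, the loci differed widely in their highest group means. Erdr1 averaged 273 RPKM (reads per kilobase of exon per 1 M reads) in P7 cKO, 225 RPKM in P4 cKO and 261 RPKM in P4 WT. The order of these groups rests on single libraries, since P7 cKO averaged 170 RPKM without its library 1 and P4 WT had 163 RPKM without its library 1. Gm8615 reached 20.6 RPKM in P4 WT, 4930413G21Rik 17.3 RPKM in P4 cKO and AI506816 11.7 RPKM in P4 cKO. Rnaset2b reached 10.2 RPKM in P4 cKO, Gm38999 7.44 RPKM in P4 WT, Gm5084 3.94 RPKM in P4 WT and Rmst 2.51 RPKM in P4 WT. The exon length used for Rnaset2b, 2026 bases, counts both of its places, where the second alone has 1013 bases. Its RPKM would be higher over 1 place, so its rank among the loci is uncertain.

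The course from P4 to P7 within a genotype was tested for each locus. These tests share their libraries with the genotype gaps that chose the loci, so they are not independent support. A locus picked for a group with an outlying level, high or low, is likelier to differ here. For Erdr1 that group is the low P7 WT sample. In cKO, 2 of the 8 loci passed the threshold, both lower at P7. Of all genes, 29.2% passed, 14.7% as lower. The log2 level of AI506816 fell by 6.26, with an SE of 0.50 (edgeR adjusted p = 2.29e-05), with all 3 P7 cKO libraries below all 3 P4 cKO libraries. Without P7 cKO library 2 AI506816 fell by 7.08 (adjusted p = 7.26e-05). Rnaset2b fell by 1.00 (SE 0.27, adjusted p = 0.0178), also with no overlap. It missed the threshold without P4 cKO library 3 (log2 -0.67, adjusted p = 0.0893) and without P7 cKO library 3 (log2 -0.94, adjusted p = 0.0540), and its adjusted p stayed under 0.05 in the other 17 of 19 alternatives.

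The other 6 loci had log2 values between -0.46 and 1.02 in cKO, and none passed the threshold. Among them were Gm8615 (1.02, SE 0.59, adjusted p = 0.224), 4930413G21Rik (-0.46, SE 0.25, adjusted p = 0.190) and Rmst (-0.46, SE 0.40, adjusted p = 0.419). Without P7 cKO library 2, the fall of 4930413G21Rik passed the threshold (log2 -0.78, adjusted p = 0.0413). Gm5084 (0.14, adjusted p = 0.719), Gm38999 (-0.06, adjusted p = 0.892) and Erdr1 (0.27, adjusted p = 0.642) had SEs of 0.25 to 0.40.

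In WT, 2 of the 8 loci passed, again both lower at P7. Of all genes, 21.8% passed, 9.97% as lower. The log2 level of Gm38999 fell by 3.39, with an SE of 0.47 (adjusted p = 0.00141), with both P7 WT libraries below both P4 WT libraries. Erdr1 fell by 2.84 (SE 0.70, adjusted p = 0.0181), again with no overlap. The fall of Erdr1 missed the threshold with no filter on low counts (adjusted p = 0.0550) and without P4 WT library 1 (log2 -2.18, adjusted p = 0.0855). In this fit P7 WT, being 1 sample, takes its spread from the other groups.

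The remaining 6 loci had log2 values between -0.77 and 1.76 in WT. AI506816 had 1.76 (SE 0.83, adjusted p = 0.148), which passed without P7 cKO library 1 (adjusted p = 0.0148). Gm5084 had -0.77 (SE 0.36, adjusted p = 0.146), which passed when the P7 WT libraries were taken as separate samples (adjusted p = 0.0301). Gm8615 (-0.10, SE 0.58, adjusted p = 0.918), Rnaset2b (-0.01, SE 0.42, adjusted p = 0.989), 4930413G21Rik (-0.53, SE 0.41, adjusted p = 0.366) and Rmst (-0.50, SE 0.56, adjusted p = 0.547) did not pass. No locus passed in both genotypes, and the difference between the genotypes' courses was not tested.

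**Figure D4:**
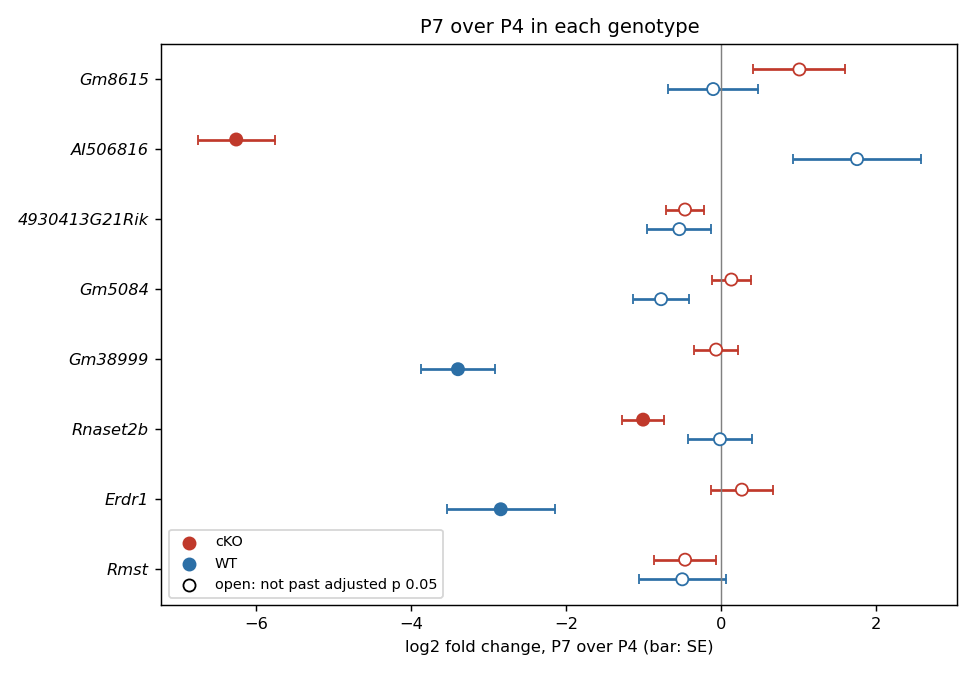
Log2 fold change of P7 over P4 for each locus in cKO (red) and WT (blue), with SE as bars and filled points past an edgeR adjusted p of 0.05. AI506816 at -6.26 and Rnaset2b are filled in cKO, Gm38999 at -3.39 and Erdr1 at -2.84 in WT.

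Genes beside the loci were taken by position alone, the 3 nearest tested genes on each side. Erdr1 had them on its left only, at 2207, 87407 and 88615 kb, too far to count as neighbours. With these included, 45 flanking genes were described in all. At P4, 7 of 45 passed the threshold (4 higher and 3 lower in cKO, 15.6%), against 8.96% of all genes (4.84% higher and 4.13% lower), and the median log2 fold change was -0.13. At P7, 5 of 45 passed (1 higher and 4 lower, 11.1%), against 17.0% of all genes (7.26% higher and 9.72% lower), and the median was -0.21. These counts were unstable, with 0 to 13 genes at P4 and 2 to 10 at P7 when 1 library was left out. Within 1 Mb of a locus, edgeR at P4 called 0 of 18 tested genes for Gm8615, 4 of 31 for AI506816 and 2 of 18 for 4930413G21Rik. It called 3 of 15 for Gm5084, 9 of 39 for Gm38999, 1 of 22 for Rnaset2b, 0 of 1 for Erdr1 and 1 of 9 for Rmst. At P7 the counts in that order were 2, 4, 0, 0, 6, 0, 0 and 3.

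Around Gm8615, 0 of 6 flanking genes passed by edgeR at either stage (2 had an unadjusted p under 0.05 at each; DESeq2 called 1 at P4 and 0 at P7, limma-voom 0 at both). Their log2 values ran from -0.57 to 1.32 at P4. Uspl1, a SUMO protease gene, had the smallest adjusted p there (log2 -0.57, adjusted p = 0.0720). Around AI506816, 5031425E22Rik (log2 1.05, adjusted p = 0.0291), Rint1 (log2 0.95, adjusted p = 0.0250) and Tomm7 (log2 1.11, adjusted p = 0.0403), of the mitochondrial import machinery, were higher in P4 cKO, the same direction as AI506816 but far smaller. At P7 these genes did not pass, with log2 values of 0.74, -0.24 and 1.06 in that order, where AI506816 had -0.48. The nearest gene, Srpk2, an SR protein kinase, had -0.42 at P4 (adjusted p = 0.158), and at P7 it fell by 1.05 (adjusted p = 0.0130).

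Beyond Rbbp6, Tnrc6a (log2 -0.93, adjusted p = 0.0241), which takes part in miRNA silencing, and Arhgap17 (log2 -0.68, adjusted p = 0.0455) were lower in P4 cKO, opposite to 4930413G21Rik. Of the 6 flanking genes of Gm5084 and the 6 of Rnaset2b, 0 passed by edgeR at either stage, where each locus had 1 with an unadjusted p under 0.05 at each stage. DESeq2 called 1 beside Gm5084 at P4 and 1 beside Rnaset2b at P7, and limma-voom called 0. Etfb, an electron transfer flavoprotein beside Gm38999, was higher in cKO at both stages (P4 log2 0.80, adjusted p = 0.0297; P7 log2 0.87, adjusted p = 0.0354), and Zfp715 was lower at P7 (log2 -1.26, adjusted p = 0.00891). Next to Rmst, Gm20757 had 0, 0 and 0 reads in P4 cKO and 12 and 5 in P4 WT (adjusted p = 0.0413), and Tmpo, a nuclear lamina protein (log2 -0.74, adjusted p = 0.0454), and Nedd1 were lower in P7 cKO. G530011O06Rik, whose span overlaps Erdr1 on the other strand with no shared exon base, had 21 to 106 reads and did not pass, with a log2 value of 0.02 at P4 (adjusted p = 0.979) and, for P7, of -0.11 (adjusted p = 0.907).

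**Figure D5:**
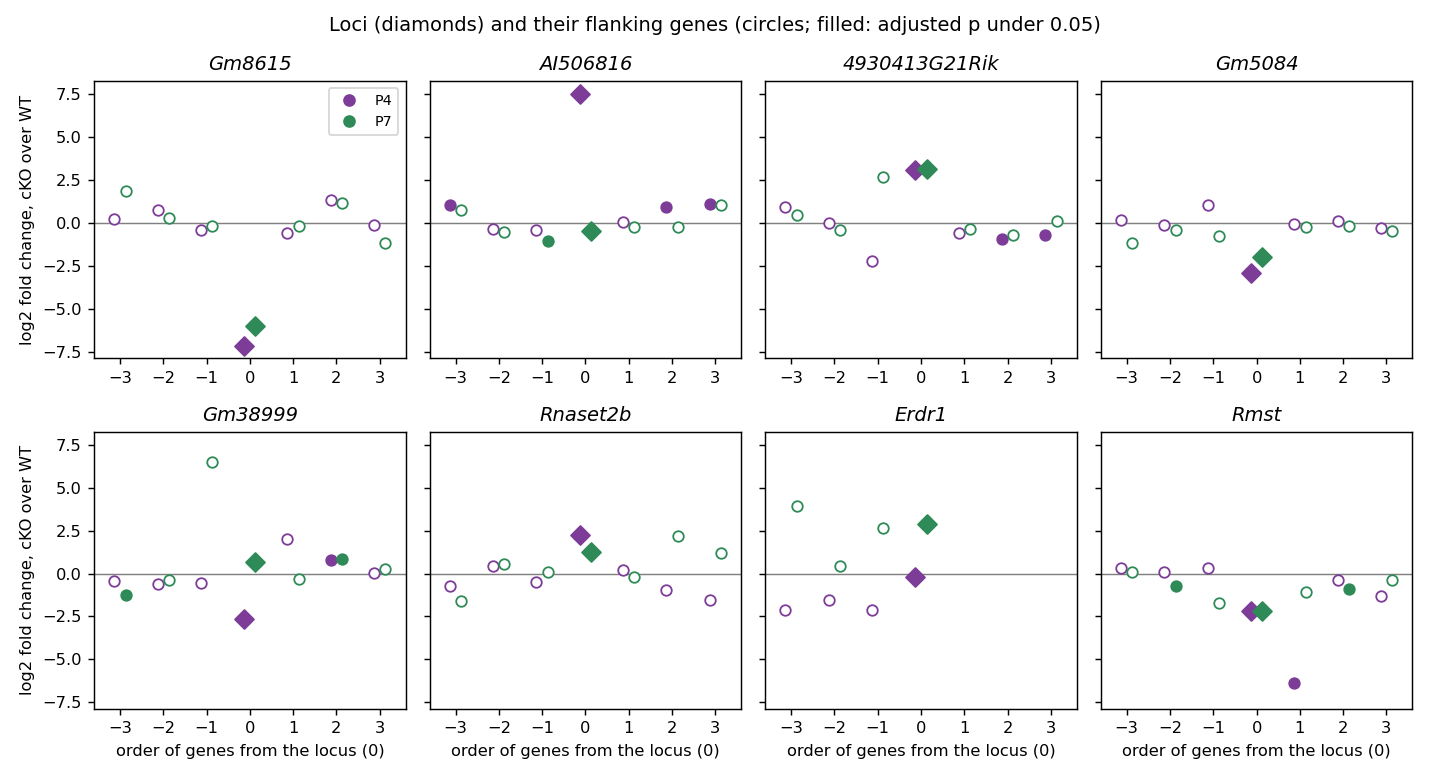
Log2 fold change of cKO over WT for each locus (diamond, position 0) and up to 3 tested genes on each side in order of distance, P4 in purple and P7 in green, with filled circles past an edgeR adjusted p of 0.05. No flanking gene of Gm8615, Gm5084, Rnaset2b or Erdr1 is filled, and the filled circles around AI506816 at P4 reach 1.11 against 7.53 for the locus.

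For each locus the genes most alike across the 9 samples were found by the root mean square difference of their centred log2 CPM, a smaller value being more alike. Low counts draw such values together, so they are given as descriptions. Gm8615 and AI506816 had no close match. The nearest to Gm8615 were Ido1 (2.02), Casp14 (2.03) and Spink5 (2.05), where its own spread about its mean was 3.20. The nearest to AI506816 were Insl3 (2.20), Sectm1b (2.20) and Has2os (2.21), where its own spread was 3.22.

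Nearest to 4930413G21Rik were Rpl34 (0.44), Mirlet7i (0.51) and Pla2g2f (0.55), and nearest to Gm5084 were Spata22 (0.35), Klk1b24 (0.46) and Gm5820 (0.49). Rmst had Gpr82 (0.36), Zfp663 (0.42) and Klk7 (0.48), and Gm38999 had Cdx4 (0.37), Nxf7 (0.44) and Scn9a (0.44). Erdr1 had Cort (0.28), Cmtm2b (0.35) and Snhg20 (0.37). Rnaset2b had Gm15501 (0.27), the ribosomal protein gene Rps3 (0.28) and Prx (0.29), all on chromosome 7. Rps3 had mean levels of 984 CPM in P4 cKO and 337 CPM in P4 WT, and of 688 CPM in P7 cKO and 307 CPM in P7 WT, so its counts are not low.

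Genes known to differ between mouse strains were listed as a check of the genetic background. Of 9 tested, 2 fell at P4 and 0 rose, Nnt, a mitochondrial transhydrogenase (log2 -1.01, adjusted p = 0.0230), and Wdfy1 (log2 -0.97, adjusted p = 0.0297). Of all genes, 4.13% fell at P4, and neither Nnt nor Wdfy1 passed without P4 WT library 1 or P4 cKO library 2 or 3. At P7, 0 passed by edgeR, DESeq2 or limma-voom, while 3 had an unadjusted p under 0.05 by edgeR. There Nnt had -0.77 (adjusted p = 0.0661) and Wdfy1 -0.75 (adjusted p = 0.0874). The list median was 0.14 at P4 and -0.43 at P7. The files hold no genotype calls, so the genetic background of the libraries was not tested.

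Markers of some cell types moved with the genotypes as well. At P4, 5 of 11 Sertoli cell, 3 of 9 Leydig cell and 3 of 9 peritubular and stromal markers rose in cKO and none fell, with median log2 values of 0.70, 1.24 and 0.55, where 4.84% of all genes rose. Their sums were 5218 to 5904 CPM in P4 cKO and 3044 to 4105 CPM in P4 WT for Sertoli cells, and 1663 to 1793 CPM in P4 cKO and 1530 to 1808 CPM in P4 WT for Leydig cells. Peritubular and stromal markers summed to 7941 to 10612 CPM in P4 cKO and 7388 to 8448 CPM in P4 WT. Of 11 genes of differentiating spermatogonia and meiotic entry, 5 fell and 0 rose at P4 (median log2 -0.64), where 4.13% of all genes fell, with sums of 83.8 to 106 CPM in cKO and 180 to 202 CPM in WT. Of 12 pan germ cell markers, 3 fell and 0 rose (median log2 -0.36). No marker of these 5 lists was without a read, and 0 of their P4 calls remained without P4 WT library 1, and Spata22 alone remained without P4 cKO library 2 or 3.

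Other lists had no call at P4. Of 10 markers of undifferentiated spermatogonia, 0 passed by edgeR or DESeq2 at either stage, with 1 at an unadjusted p under 0.05 at each, while limma-voom called 0 at P4 and 1 at P7. Their median log2 value was 0.09 at P4 and 0.40 at P7, and their sum was 172 to 198 CPM in P4 cKO and 119 to 171 CPM in P4 WT. At P4, 0 of 7 endothelial and 0 of 8 nervous tissue markers passed by edgeR (1 and 5 had an unadjusted p under 0.05), with medians of 0.11 and 0.12. DESeq2 called 0 and 1 of them and limma-voom 0 of both. Neither of the 2 erythroid nor any of the 7 epididymis and efferent duct markers tested had an unadjusted p under 0.05 at P4, and DESeq2 and limma-voom called 0. At P7, 1 endothelial marker rose, and 1 nervous tissue, 1 erythroid and 1 epididymis marker fell.

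Also at P7, 2 germ cell markers and 4 of differentiating spermatogonia and meiotic entry fell, and Sohlh1, a factor of spermatogonial differentiation, rose. With them went 1 Sertoli and 1 Leydig cell marker in each direction, 1 stromal marker that rose and 1 macrophage marker that fell, against 7.26% of all genes higher and 9.72% lower. Without P7 cKO library 2 the calls left in these 5 lists and that of macrophages were 3 of differentiating spermatogonia and meiotic entry, 1 Leydig and 1 macrophage marker, all lower. The part of these cell type markers in the gaps of the 8 loci was not tested.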

How the data were processed

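The authors deposited 1 table of raw read counts per gene with exon coordinates, per the file headers. The submitters' processing notes name STAR 2.7.11a, featureCounts, Subread 2.0.6, Trim Galore 0.6.10, SAMtools 1.6, FastQC 0.12.1 and MultiQC 1.14, with the build GRCm38 (mm10). Neither the strand setting nor the handling of multi-mapping reads is given in the sources used here. Per the file's values, 67.8% to 80.0% of counts of 1 to 49 were even, so that a small count may rest on fewer fragments than reads.

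Counts were fitted with edgeR 4.0.16 in R 4.3.3 (robust quasi-likelihood F test, TMM, filterByExpr defaults, 1 mean per group) over 9 samples with 5 residual degrees of freedom. P-values are two-sided, Benjamini-Hochberg adjusted over 18419 genes, with a threshold of 0.05. SE is the log2 fold change over the square root of F. The scripts were tested on simulated data. Copies were sought with BLAST 2.17.0 in GENCODE M21 transcripts. Alternatives included limma 3.58.1 (voom) and DESeq2 1.42.0.

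Members and gene lists were chosen with earlier results of these data known. Genes named are the 8 loci, 3 flanking genes per side (gene spans over 5 Mb left out, the first Rnaset2b place used), 3 likest genes each, the widest gaps, Rnaset2a, Lsm7 and leading genes of lists. Gnpda1 was named for its sequence match.

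The lists were pan germ cell, undifferentiated spermatogonia, differentiating spermatogonia and meiotic entry, Sertoli, Leydig, peritubular and stromal, macrophage, endothelial, erythroid, epididymis and efferent duct, nervous tissue, nuclease, lysosome, pseudoautosomal, Rmst, mouse strain and piRNA methylation genes.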

Additional observations from a re-analysis of the deposited data

Results flagged for a closer look

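Gm38999 is marked because its genotype gap ran in opposite directions at the stages, with every cKO library on the same side of every WT library at each. Its log2 fold change of cKO over WT was -2.67 at P4 and 0.66 at P7. The difference between these values was not tested, since the genotype gap chose the locus, and the P7 WT side is 1 sample.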

How the results depend on the processing

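The counts of genes past the threshold depended on how the samples were treated. For cKO against WT at P4, 1651 genes passed, against 3020 with DESeq2, 2895 with 10 separate libraries and 3229 with only the 2 groups compared, and 2 to 4157 when a library was left out. At P7, 3129 passed, against 6905 with 10 separate libraries and 961 to 4921 when a library was left out. With only the P7 groups 0 passed by edgeR, although 4834 had an unadjusted p under 0.05. Flanking genes past the threshold numbered 0 to 13 at P4 (7 in the reported fit) and 2 to 10 at P7 (5 in the reported fit) when a library was left out, and at P7 16 with 10 separate libraries and 0 with only the 2 groups. For P7 against P4, 5372 genes passed in cKO (3520 to 5569 when a library was left out) and 4016 in WT (7279 with 10 separate libraries, 1187 to 6315 when a library was left out). Of the loci, 2 passed in each genotype, 1 to 3 in either when a library was left out, and 1 in WT with no filter. Genes split at both stages numbered 1 and 2 at a 4-fold gap. Same-numbered cKO libraries of P7 and P4 correlated at 0.04, -0.19 and 0.16. At P4, cKO and WT libraries of the same number correlated at 0.17 and -0.11. With 2 WT libraries the deviations from their mean mirror each other, so these values cannot show whether the numbers pair the samples. The fit with the replicate block gave 2732 genes at P4, 7438 at P7 with 16 flanking genes, and 7812 for WT over the stages. Over all alternatives no called value of a locus changed sign. Signs changed under some settings for Erdr1 at P4 between genotypes (0.47 without P4 WT library 1) and, over the stages, for Gm5084, Gm38999 and Erdr1 in cKO and Rnaset2b in WT, none of which passed. Among the log2 fold changes of the loci alone, 593 values kept their side or stayed within 1 SE, 7 moved further, 4 gained and 4 lost a call. The counts of genes given above, which varied widely, are not part of these values. The causes were not tested. Depth limits Gm8615 in cKO and AI506816 outside P4 cKO, which rest on 2 to 40 reads a library.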
